A study of Mus musculus with 12 samples.

Results

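The mitochondrial carrier family Slc25 was followed in mouse liver across 2 diets that differed in protein content. Members were the rows of the count table whose symbol is Slc25a followed by a number, with 4 carriers of that form left out of the selection. This gave 43 genes of the 56980 in the table. Of these, 37 had enough counts to be tested among 13768 genes, and 6 did not. Members were then grouped by what they carry.

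The LPD group was 6 mice fed chow with 5% of its energy as protein, and the SPD group 6 mice fed chow with 25%, both for 3 weeks. All 12 mice were B6.Cg-Lepob/J (ob/ob), labelled Lep-/-, so both groups lacked leptin, the hormone of fat tissue that restrains feeding. They were 8 weeks old at the start, ate freely, and were 11 weeks old when the liver was taken. RNA of whole liver was sequenced, so a lower value can mean fewer cells of a type or less RNA per cell, which cannot be told apart.

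Carriers of this family sit mostly in the inner mitochondrial membrane, which small charged metabolites cannot cross unaided, and each exchanges or moves a narrow set of them. They pass nucleotides, phosphate, organic acids, amino acids and coenzymes between cytosol and matrix, and so connect glycolysis, the tricarboxylic acid cycle, respiration, amino acid breakdown and lipid synthesis. In liver they serve urea synthesis, glucose production and the export of carbon for fat synthesis.

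Total counts per library were 19404340 to 23681408 in LPD livers and 19374676 to 23710930 in SPD livers. The first principal component held 44.5% of the variance and ran from 15.9 to 53.9 in LPD livers and from -34.1 to -26.9 in SPD livers. LPD replicates 2 and 5 stood apart, at 53.9 and 48.8. LPD replicate 1 carries an LPD title and library code, but its treatment field gives 25% protein; it was kept as LPD, and where counting it as SPD ends a call, that value is given beside the result. Hepatocyte markers summed to 66457 to 90665 CPM in LPD livers and 76047 to 85305 CPM in SPD livers (counts scaled to a common library size by TMM, the unit used for levels between diets).

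The promoters of 32 member genes were found in the RefSeq table of GRCm38.p6, as windows from 250 bases before to 50 bases after a start. Shown here are those of Slc25a33 and Slc25a36, which carry the same kind of nucleotide and both hold an E-box, and that of Slc25a24, the member with the largest fold change. Capitals mark the E-box, CACGTG, which lies at position -8 from the start in Slc25a33 and at -187 in Slc25a36. The Slc25a24 window has no capitals because none of the searched motifs is in it. In order, the windows are chr4:149774218-149774517, minus strand, chr9:97110992-97111291, minus strand, and chr3:109122899-109123198, plus strand.
Slc25a33: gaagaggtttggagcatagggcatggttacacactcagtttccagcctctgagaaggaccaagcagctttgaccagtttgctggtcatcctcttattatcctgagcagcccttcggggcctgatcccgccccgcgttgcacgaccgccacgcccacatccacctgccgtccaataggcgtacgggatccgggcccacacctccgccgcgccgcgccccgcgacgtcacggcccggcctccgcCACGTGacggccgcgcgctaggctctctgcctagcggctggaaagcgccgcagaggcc
Slc25a36: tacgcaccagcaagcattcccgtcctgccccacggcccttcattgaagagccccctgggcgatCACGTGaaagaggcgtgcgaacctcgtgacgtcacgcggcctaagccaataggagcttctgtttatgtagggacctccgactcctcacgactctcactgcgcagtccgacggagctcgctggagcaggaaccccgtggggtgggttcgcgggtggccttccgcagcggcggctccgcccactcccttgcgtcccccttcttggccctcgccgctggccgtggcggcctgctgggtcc
Slc25a24: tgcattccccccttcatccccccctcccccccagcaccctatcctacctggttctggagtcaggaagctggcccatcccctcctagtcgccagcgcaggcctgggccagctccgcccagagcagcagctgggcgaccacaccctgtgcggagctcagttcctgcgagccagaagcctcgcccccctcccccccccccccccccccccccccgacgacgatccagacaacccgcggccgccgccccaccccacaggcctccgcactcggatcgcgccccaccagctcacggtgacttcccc

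An E-box was present in 7.15% of the 32851 RefSeq promoters, and in 5 of the 41 member windows, as some genes have several windows. These 5 belong to 4 member genes, Slc25a14, Slc25a31, Slc25a33 and Slc25a36. Of these only Slc25a33 was called between diets, at a log2 fold change of 0.88, while Slc25a31 was not tested. Searched on both strands, the element bound by ATF4 (TGATGNAA, in 3.97% of all promoters), the ETS site bound by GABP (CCGGAAGT, 3.89%) and the ERR element (TCAAGGTCA, 0.423%) were in no member window. The NRF1 site (GCGCANGCG, 6.25%) was in 2 of the 41 windows, those of Slc25a3 and Slc25a31. The sterol response element (TCACNCCAC, 1.24%) was in 1, that of Slc25a18. The 11 members without a window, among them Slc25a32 and Slc25a37, both called between diets, were not searched.

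Of the 37 members tested, 8 rose and 6 fell in LPD livers by edgeR's quasi-likelihood test at an adjusted p under 0.05, and 23 were not called. The 14 called are 37.8% of those tested, near the 39.9% of all tested genes. Over all genes, 20.7% were higher in LPD and 19.2% lower. With LPD replicate 1 counted as SPD, 6 of the 8 members remained higher and 3 of the 6 lower. In 7 members the values of the diets did not overlap (18.9%, against 19.9% of all genes): Slc25a29, Slc25a32, Slc25a33 and Slc25a39 lay above, and Slc25a4, Slc25a24 and Slc25a40 below. The median log2 fold change was 0.083 over members and -0.00059 over all genes, and the median size was 0.194 against 0.224. Most changes were small: outside Slc25a4, Slc25a24, Slc25a29 and Slc25a33, every called member changed by less than 0.5 on the log2 scale.

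**Figure D1:**
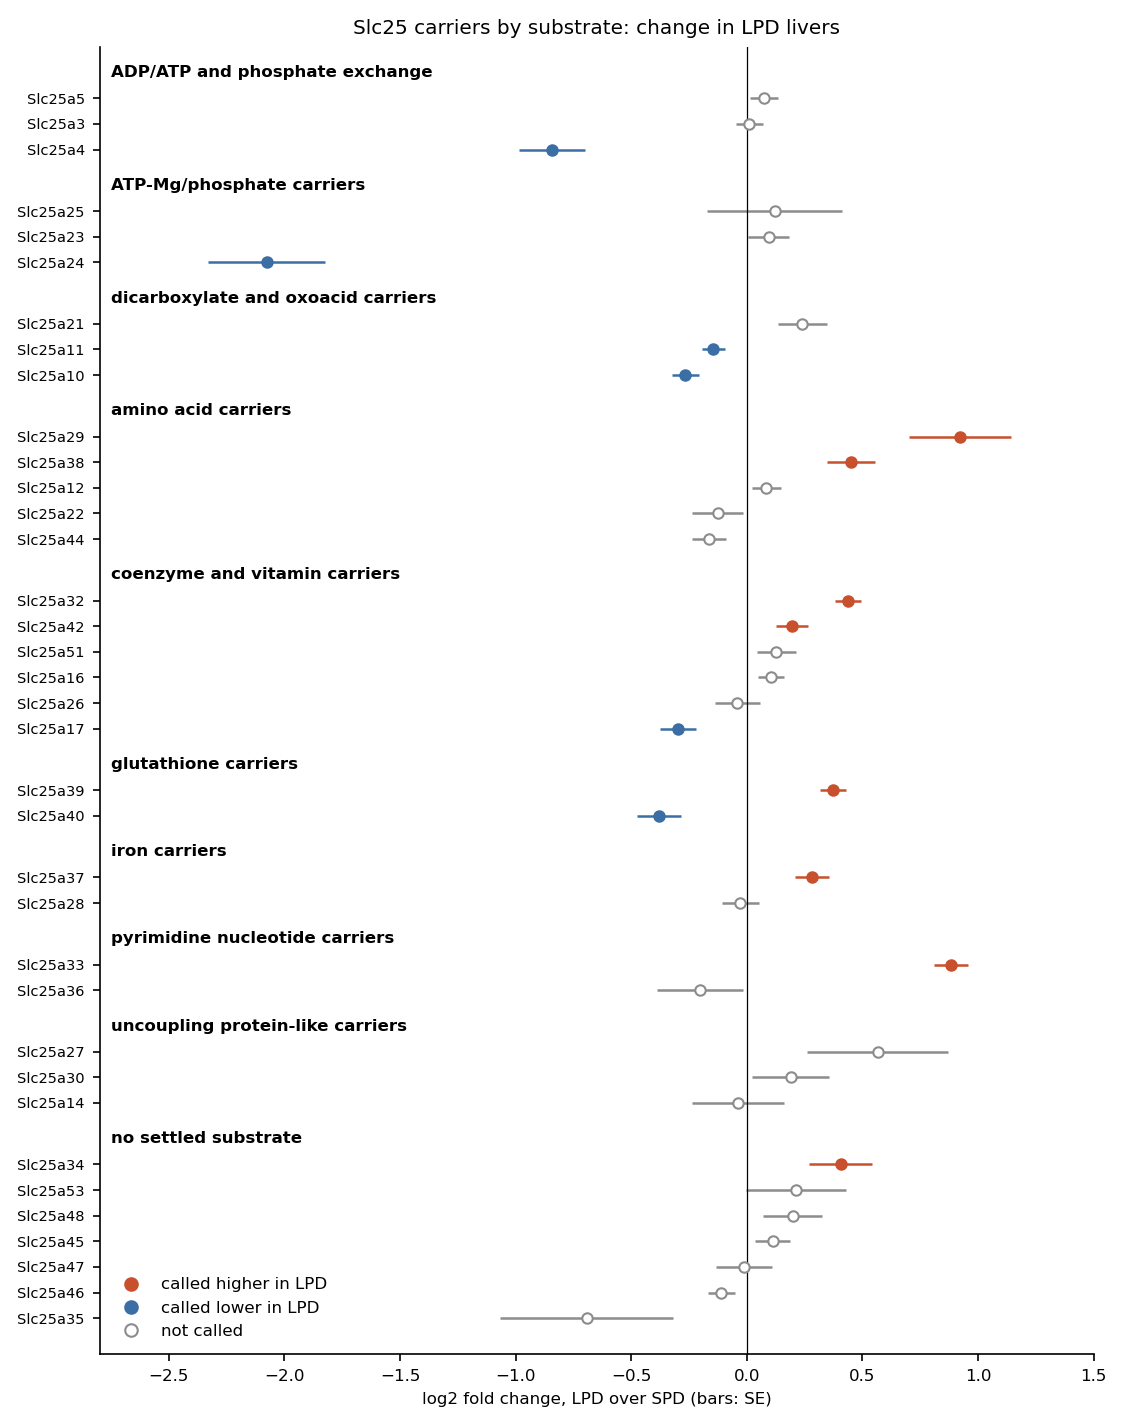
Log2 fold change, LPD over SPD, of 36 of the 37 tested carriers, grouped by substrate. Points are estimates and bars are standard errors; filled points were called at an adjusted p under 0.05, 8 higher and 6 lower in LPD, and open points were not. Slc25a24 stands apart at -2.08.

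Transcripts of the 43 members summed to 3851 ± 219 TPM in LPD livers and 3646 ± 169 TPM in SPD livers (per-length level, mean ± SD, n = 6 each). The 4 carriers left out of the selection are not in these sums, shares and ranks. A few members made up most of the sum: the top 5 of LPD livers held 79.7% of it there. Slc25a47, a carrier enriched in liver, averaged 965 ± 157 TPM in LPD livers and 942 ± 156 TPM in SPD livers. Next in LPD livers came the ADP/ATP carrier Slc25a5, at 868 ± 20.7 TPM, against 806 ± 43.8 TPM in SPD livers. The glutathione carrier Slc25a39 followed, at 521 ± 7.78 TPM in LPD livers and 394 ± 16.5 TPM in SPD livers. The phosphate carrier Slc25a3 averaged 454 ± 10.4 TPM in LPD livers and 440 ± 13.3 TPM in SPD livers, so that Slc25a39 stood above it in LPD livers and below it in SPD livers. The dicarboxylate carrier Slc25a10 came next, at 262 ± 7.76 TPM in LPD livers and 308 ± 15.5 TPM in SPD livers. Neither Slc25a47 (adjusted p = 0.949) nor Slc25a5 (adjusted p = 0.368) was called between diets by edgeR's test. The CPM ranges of the diets overlapped for both.

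**Figure D2:**
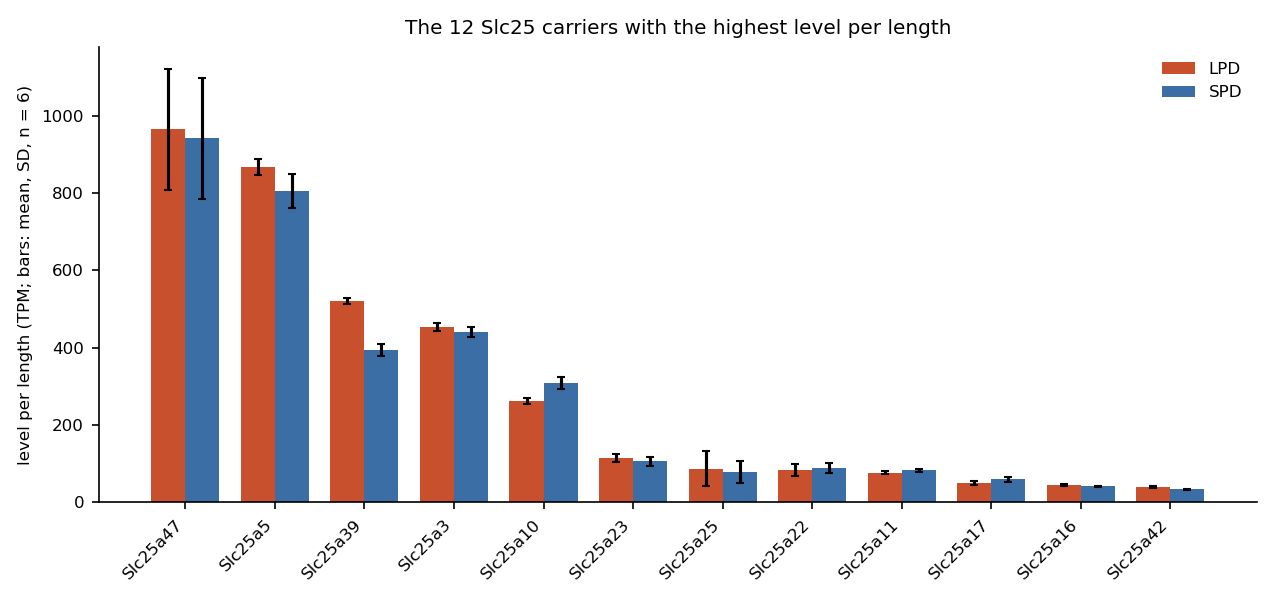
Per-length level in TPM of the 12 selected members that are highest in LPD livers; bars are means and error bars SD over 6 livers, LPD left of SPD. Of these 12, Slc25a39 and Slc25a42 were called higher in LPD, and Slc25a10, Slc25a11 and Slc25a17 lower.

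Among carriers that exchange ADP for ATP or bring in phosphate, 1 of 3 tested members changed. Slc25a4, the ADP/ATP carrier typical of heart and skeletal muscle, had 4.31, 7.71 and 8.18 CPM in LPD livers (lowest, median and highest of 6, as in all such triplets below) and 11.2, 11.7 and 15.1 CPM in SPD livers. Every LPD liver lay below every SPD liver. Its log2 fold change was -0.84 ± 0.14 (SE, adjusted p = 0.000272), a 1.79-fold lower level. The 2 lowest livers, LPD replicates 5 and 2, at 4.31 and 5.46 CPM, are the libraries that stood apart, and without both the log2 fold change was -0.65 (adjusted p = 0.000179). Muscle markers summed to at most 0.251 CPM in any LPD liver and 0.197 CPM in any SPD liver. Slc25a5, the form that predominates in liver, had a median of 588 CPM in LPD livers and 554 CPM in SPD livers (log2 fold change 0.07 ± 0.062). Slc25a3, which carries the phosphate used by ATP synthase, had medians of 324 and 326 CPM in LPD and SPD livers (0.01 ± 0.058). Slc25a31, the testis form, had 10 counts in LPD livers and 13 in SPD livers and was not tested.

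Carriers that exchange ATP-Mg for phosphate under calcium control set the adenine nucleotide content of the matrix, and 1 of 3 tested members changed. Slc25a24 had 1.65, 5.83 and 6.24 CPM in LPD livers, against 12.8, 20.1 and 27.8 CPM in SPD livers. The diets were far apart, with 6.24 CPM in the highest LPD liver and 12.8 CPM in the lowest SPD liver. The log2 fold change was -2.08 ± 0.25 (adjusted p = 1.75e-05), a 4.22-fold lower level and the largest change of the tested members. LPD replicates 5 and 2 were again lowest, at 1.65 and 3.29 CPM, and without both the log2 fold change was -1.77 (adjusted p = 9.92e-06). Slc25a25 varied most among the abundant carriers, from 75.9 to 280.1 CPM in LPD livers and 66.4 to 201.8 CPM in SPD livers. Its coefficient of variation was 49.0% in LPD livers and 34.7% in SPD livers, and its log2 fold change 0.12 ± 0.29. Slc25a23 had medians of 198 CPM in LPD livers and 191 CPM in SPD livers (0.09 ± 0.088). Slc25a41 and Slc25a54 had no count in any library, which allows up to 3 counts a library, or 0.121 to 0.158 CPM, counting error only.

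Proliferation markers, like Slc25a4 and Slc25a24, were lower in LPD livers. All 6 fell, with a median log2 fold change of -1.67, and they summed to 6.09 to 13.8 CPM in LPD livers and 30.6 to 39.3 CPM in SPD livers. Markers of macrophages fell in 3 of 8 cases and summed to 514 to 814 CPM in LPD livers and 714 to 1033 CPM in SPD livers. Those of stellate cells and fibroblasts fell in 3 of 7, with sums of 336 to 565 CPM in LPD livers and 458 to 651 CPM in SPD livers. Endothelial markers fell in 2 of 6, at 258 to 310 CPM in LPD livers and 305 to 339 CPM in SPD livers. In all 4 lists LPD replicates 2 and 5 were lowest among LPD livers, as they were for Slc25a4 and Slc25a24. The order of SPD livers was not compared. Other called falls ranked otherwise: Slc25a10 and Slc25a11 were highest among LPD livers in replicate 5, Slc25a17 in replicate 2 and Slc25a40 in replicate 4. The remaining marker lists had other lowest LPD livers. The 2 lowest LPD livers were replicates 5 and 4 for cholangiocyte and lymphocyte markers, and 3 and 2 for erythroid markers. For adipocyte markers, whose sum was nearly all Cidea, they were replicates 1 and 2, and for hepatocyte markers 1 and 6. Lymphocyte markers summed to 4.61 to 7.80 CPM in LPD livers and 7.45 to 27.7 CPM in SPD livers. Of the 3 tested, only Ighm was called, at a log2 fold change of -1.98 (means of 3.58 CPM in LPD and 14.2 CPM in SPD livers). The other 2 were not called, and the median of the list was 0.28. Of hepatocyte markers, 4 of 7 rose and none fell. Most markers of macrophages (5 of 8), stellate cells and fibroblasts (4 of 7) and endothelium (4 of 6) were not called. Over all tested genes, 20.7% were higher in LPD livers and 19.2% lower. The part of these cell types in the carriers' falls was not tested.

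Of the dicarboxylate and oxoacid carriers, 2 of 3 fell, by little. Slc25a10, which exchanges malate or succinate for phosphate, had 259, 289 and 320 CPM in LPD livers and 316, 351 and 368 CPM in SPD livers. Of the LPD livers, 5 lay below the lowest SPD liver, and LPD replicate 5 was in the SPD range. The log2 fold change was -0.27 ± 0.060 (adjusted p = 0.00241). For Slc25a11, the oxoglutarate-malate carrier of the malate-aspartate shuttle, LPD livers had 64.3, 69.6 and 77.9 CPM and SPD livers 75.1, 78.1 and 80.6 CPM. The ranges overlapped through LPD replicate 5, and the log2 fold change was -0.15 ± 0.050 (adjusted p = 0.0299). This call was lost in 11 of 22 alternatives, with an adjusted p of up to 0.0954. Among them were the fits without LPD replicate 2, 3, 4 or 6 or SPD replicate 1, 2, 3 or 5 (adjusted p = 0.0501 to 0.0768), and the fit that counts LPD replicate 1 as SPD (adjusted p = 0.0684). Exons of Slc25a11 share 189 bases with Rnf167 on the opposite strand, and its counts were not whole in 5 libraries. Slc25a21, the oxoadipate carrier of lysine and tryptophan breakdown, had 10.9, 11.5 and 14.7 CPM in LPD livers and 7.94, 10.1 and 12.1 CPM in SPD livers (log2 fold change 0.24 ± 0.11, adjusted p = 0.0863). It was called higher without SPD replicate 2 (0.30, adjusted p = 0.0396).

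Of 5 amino acid carriers tested, 2 rose and none fell. Slc25a29, a carrier of basic amino acids, had 1.56, 2.16 and 2.56 CPM in LPD livers and 0.637, 1.18 and 1.498 CPM in SPD livers. The diets did not overlap, though the lowest LPD liver, at 1.56 CPM, was close to the highest SPD liver, at 1.498 CPM. The log2 fold change was 0.92 ± 0.22 (adjusted p = 0.00364), from 274 counts in LPD livers and 137 in SPD livers. In the 4 LP4 and 4 SP1 libraries alone it was 0.76 and not called (adjusted p = 0.0781). Slc25a38, the glycine carrier that feeds heme synthesis, had 11.1, 12.3 and 16.6 CPM in LPD livers and 8.45, 9.13 and 11.2 CPM in SPD livers. Only the lowest LPD liver lay within the SPD range, and LPD replicate 2 stood above the other LPD livers. Its log2 fold change was 0.45 ± 0.10 (adjusted p = 0.00261). The other 3 were not called: the glutamate carrier Slc25a22 at -0.13 ± 0.11 (called lower in the LP4 and SP1 libraries alone, at -0.31, adjusted p = 0.0131), the aspartate-glutamate carrier Slc25a12 at 0.08 ± 0.063, and Slc25a44, described as a carrier of branched-chain amino acids, at -0.17 ± 0.073 (adjusted p = 0.0840). Without SPD replicate 3 or 6, Slc25a44 was called lower (adjusted p = 0.0390 and 0.0444). The ornithine carrier Slc25a2 had 12 counts in LPD livers and 1 in SPD livers, and the glutamate carrier Slc25a18 had 2 and 6, too few to test.

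Carriers of coenzymes and vitamins went both ways, with 2 of 7 higher and 1 lower. Slc25a32, which brings folate and flavin nucleotide into the matrix, had 37.8, 44.9 and 47.4 CPM in LPD livers and 30.2, 32.2 and 34.1 CPM in SPD livers. Every LPD liver lay above every SPD liver (log2 fold change 0.44 ± 0.058, adjusted p = 3.58e-05). Slc25a42, a coenzyme A carrier, had 58.6, 66.6 and 73.1 CPM in LPD livers and 52.6, 57.0 and 63.97 CPM in SPD livers. Only 3 LPD livers lay above the SPD range. Its log2 fold change of 0.19 ± 0.068 passed the test by little (adjusted p = 0.0333), and 11 of 22 alternatives lost the call. Among these were the fits without LPD replicate 1, 2 or 5 or SPD replicate 2, 3, 4 or 6 (adjusted p = 0.0559 to 0.0753), and the fit that counts LPD replicate 1 as SPD (adjusted p = 0.264). The peroxisomal coenzyme carrier Slc25a17 had 40.5, 44.6 and 53.6 CPM in LPD livers and 49.3, 55.4 and 66.8 CPM in SPD livers. Of the LPD livers 5 lay below the SPD range, and the log2 fold change was -0.30 ± 0.079 (adjusted p = 0.00750). Counting LPD replicate 1 as SPD lost the call (-0.21, adjusted p = 0.129), and so did the fit on the 4 LP4 and 4 SP1 libraries alone (-0.24, adjusted p = 0.0856). Slc25a16, another coenzyme A carrier, was at 0.10 ± 0.056, and the NAD carrier Slc25a51 at 0.13 ± 0.086. The S-adenosylmethionine carrier Slc25a26 was at -0.04 ± 0.096; none of these 3 was called.

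Both glutathione carriers changed, in opposite directions. Slc25a39 had 449, 469 and 508 CPM in LPD livers and 339, 360 and 399 CPM in SPD livers. No LPD liver overlapped an SPD liver, and the log2 fold change was 0.37 ± 0.058 (adjusted p = 0.000135). Slc25a40 had 4.78, 5.12 and 5.91 CPM in LPD livers and 5.92, 7.003 and 7.44 CPM in SPD livers. The ranges only just cleared each other, and the log2 fold change was -0.38 ± 0.095 (adjusted p = 0.00514). With LPD replicate 1 counted as SPD, the call on Slc25a40 was lost, at an adjusted p of 0.0759. Slc25a40 is a minor form here, at 3.52 ± 0.460 TPM in LPD livers and 4.48 ± 0.383 TPM in SPD livers. The per-length sum of the pair was 525 ± 7.95 TPM in LPD livers and 398 ± 16.6 TPM in SPD livers.

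Iron and pyrimidine nucleotide carriers each had 1 of 2 members higher. Slc25a37, mitoferrin-1, had 39.4, 48.7 and 52.1 CPM in LPD livers and 36.1, 37.9 and 42.4 CPM in SPD livers. Of the LPD livers 5 lay above the SPD range (log2 fold change 0.28 ± 0.072, adjusted p = 0.00582), and in the 4 LP4 and 4 SP1 libraries alone it was not called (0.26, adjusted p = 0.0609). Slc25a37 is also abundant in erythroid cells, whose markers summed to 146 to 239 CPM in 5 LPD livers, 1334 CPM in LPD replicate 4, and 570 to 1058 CPM in SPD livers. By this sum 5 LPD livers lay below every SPD liver, and 1 lay above. The globin genes Hba-a1 and Hbb-bs, which make up most of the sum, were at -1.07 ± 0.49 and -1.04 ± 0.52. They were not called, nor was Alas2 (0.02 ± 0.11). The part of blood cells in this result was not tested. Slc25a28, mitoferrin-2, was at -0.03 ± 0.079. Slc25a33, which carries pyrimidine nucleotides for mitochondrial DNA and RNA synthesis, had 19.8, 22.6 and 26.3 CPM in LPD livers and 12.1, 12.3 and 12.8 CPM in SPD livers. Its SPD values were close together, with a coefficient of variation of 2.16%, against 11.5% in LPD livers. The log2 fold change was 0.88 ± 0.073 (adjusted p = 4.81e-07), a 1.84-fold higher level and the smallest p of the tested members. Slc25a36 carries the same class of nucleotides and was at -0.20 ± 0.19.

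**Figure D3:**
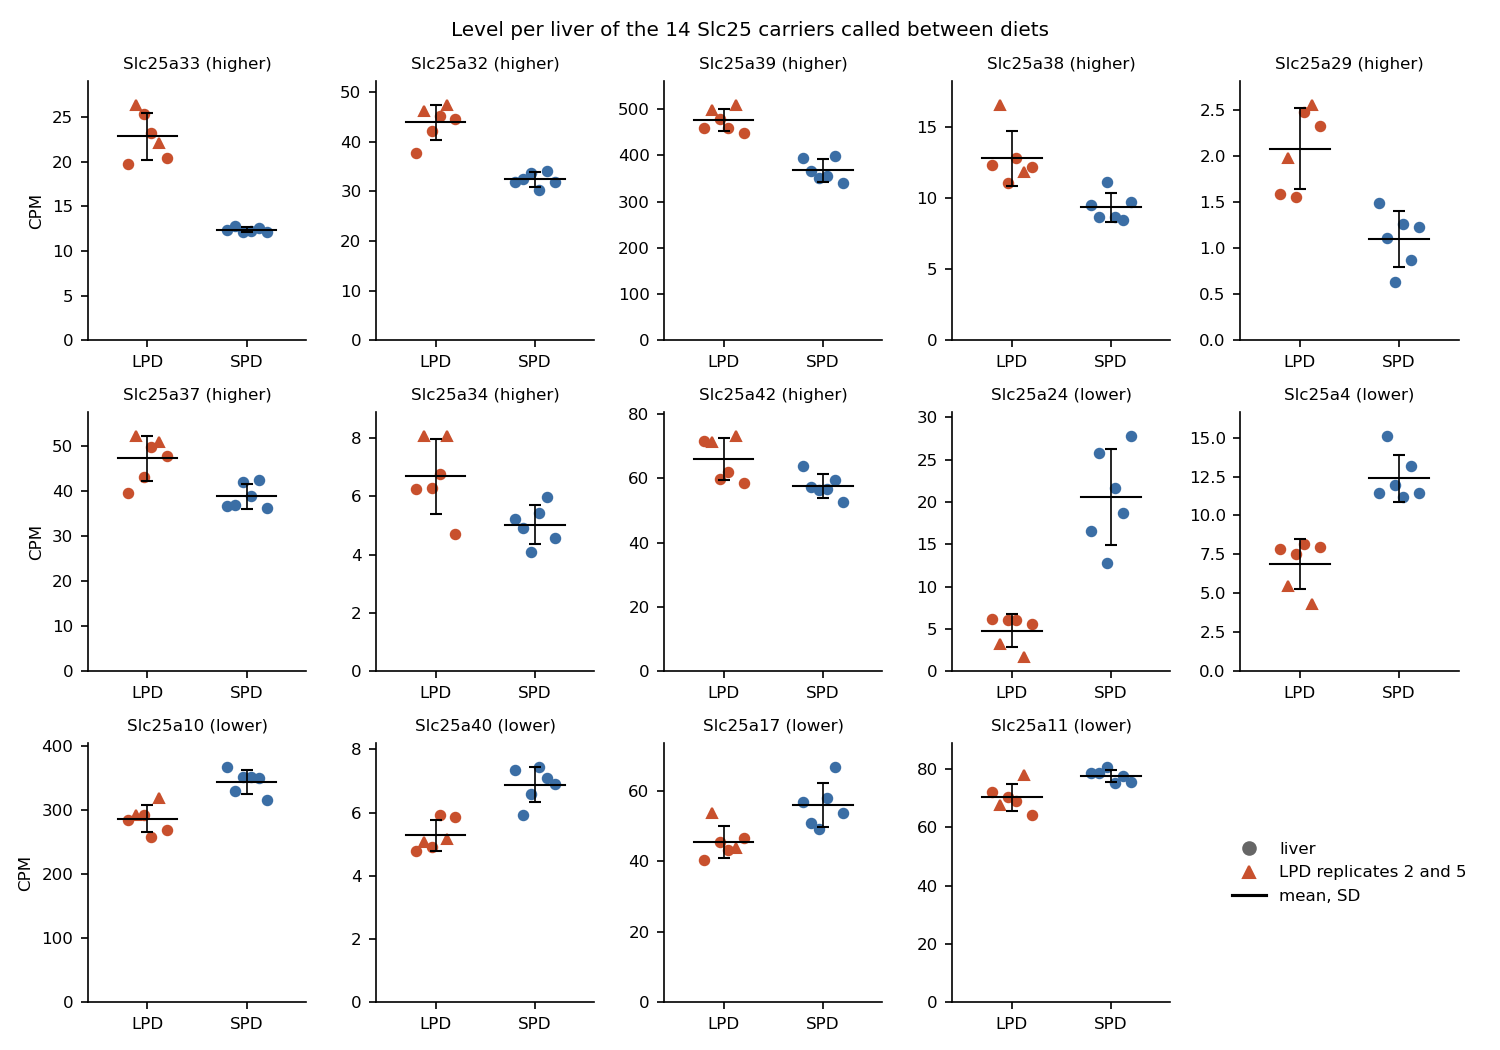
Level in CPM of the 14 called carriers in each liver, LPD left of SPD, with mean and SD; triangles are LPD replicates 2 and 5, which stood apart over all genes. In Slc25a24, Slc25a4 and Slc25a33 the diets are apart, while Slc25a11 and Slc25a42 overlap.

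None of the 3 carriers related to uncoupling proteins was called. Slc25a27 was at 0.57 ± 0.30 from 138 counts in all, Slc25a30 at 0.19 ± 0.17 and Slc25a14 at -0.04 ± 0.20. Among carriers without a settled substrate, 1 of 7 rose. Slc25a34 had 4.70, 6.52 and 8.07 CPM in LPD livers and 4.10, 5.06 and 5.97 CPM in SPD livers. Of its LPD livers 5 lay above the SPD range, and replicates 2 and 5 were the highest. The log2 fold change was 0.41 ± 0.14 (adjusted p = 0.0273), and without both it was 0.25 (adjusted p = 0.169). Leaving out LPD replicate 2 or 5 or SPD replicate 3 or 6 alone also lost the call (adjusted p = 0.0544 to 0.0650), as did counting LPD replicate 1 as SPD (adjusted p = 0.0577). The 6 others ran from -0.69 ± 0.37 in Slc25a35 to 0.21 ± 0.22 in Slc25a53, and Slc25a47, the most abundant, was at -0.01 ± 0.12. Slc25a48, at 0.20 ± 0.13, was called higher without SPD replicate 3 (adjusted p = 0.0301), and Slc25a46, at -0.11 ± 0.058, was called lower in the LP4 and SP1 libraries alone (-0.21, adjusted p = 0.0233). Slc25a35 shares 1151 exon bases with Rangrf on the opposite strand. Slc25a43 had 13 counts in LPD livers and 6 in SPD livers.

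For pairs of carriers with a shared kind of substrate, the log2 ratio of CPM within pairs was compared between diets by an exact two-sided permutation test over all 924 labelings, adjusted over 11 pairs. Gene length and library scaling cancel in this difference. Of the 11 pairs, 7 differed; Slc25a23, Slc25a24 and Slc25a25 each enter 2 pairs, so these are not independent. The pairs were chosen with earlier results known and use the libraries of the single-gene test. A ratio of a called carrier whose diets did not overlap to one that was not called, or that moved the other way, restates that call, so these p-values are no further support. No share was computed for pairs of other genes, so the count of 7 says nothing particular to these carriers.

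Slc25a23 stood at a median of 33.5 times Slc25a24 per length in LPD livers and 9.49 times in SPD livers. Their log2 ratio was higher by 2.26 in LPD livers (exact p = 0.0021645, adjusted p = 0.00595), with no overlap. Slc25a24 over Slc25a25 was at a median of 0.0285 in LPD livers and 0.137 in SPD livers, a log2 difference of -2.25 (exact p = 0.00433, adjusted p = 0.00952), with ranges that overlapped. For Slc25a23 over Slc25a25 the difference was 0.02 (exact p = 0.970).

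Slc25a4 over Slc25a5, the ADP/ATP carriers, had a median per-length ratio of 0.00844 in LPD livers and 0.0147 in SPD livers. The log2 difference was -0.95 (exact p = 0.0021645, adjusted p = 0.00595) without overlap. Slc25a33 over Slc25a36 had a median ratio of 14.2 in LPD livers and 6.96 in SPD livers, a difference of 1.098 with the same p-values and no overlap. Slc25a39 over Slc25a40 had a median ratio of 160 in LPD livers and 88.2 in SPD livers, a difference of 0.75, again with those p-values and no overlap. The p of these pairs is the smallest that the labelings can give.

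Smaller shifts passed for Slc25a10 over Slc25a11 (-0.12, exact p = 0.0173, adjusted p = 0.0317) and Slc25a28 over Slc25a37 (-0.30, exact p = 0.0238, adjusted p = 0.0374). Both overlapped between diets and lost the call when single livers were left out. For Slc25a10 over Slc25a11 these were LPD replicates 1, 4 and 5 and SPD replicates 1, 4 and 5 (adjusted p = 0.0544 to 0.0714), and counting LPD replicate 1 as SPD lost it too (-0.09, adjusted p = 0.158). For Slc25a28 over Slc25a37 they were LPD replicates 2, 4, 5 and 6 and SPD replicates 1, 2, 4 and 6 (adjusted p = 0.0544 to 0.0782). Slc25a34 over Slc25a35 differed by 0.99 and missed the threshold (exact p = 0.0498, adjusted p = 0.0685), and passed it without SPD replicate 2 or 4 (adjusted p = 0.0476). Slc25a16 over Slc25a42 (-0.09, exact p = 0.245) and Slc25a14 over Slc25a30 (-0.23, exact p = 0.329) did not pass either.

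**Figure D4:**
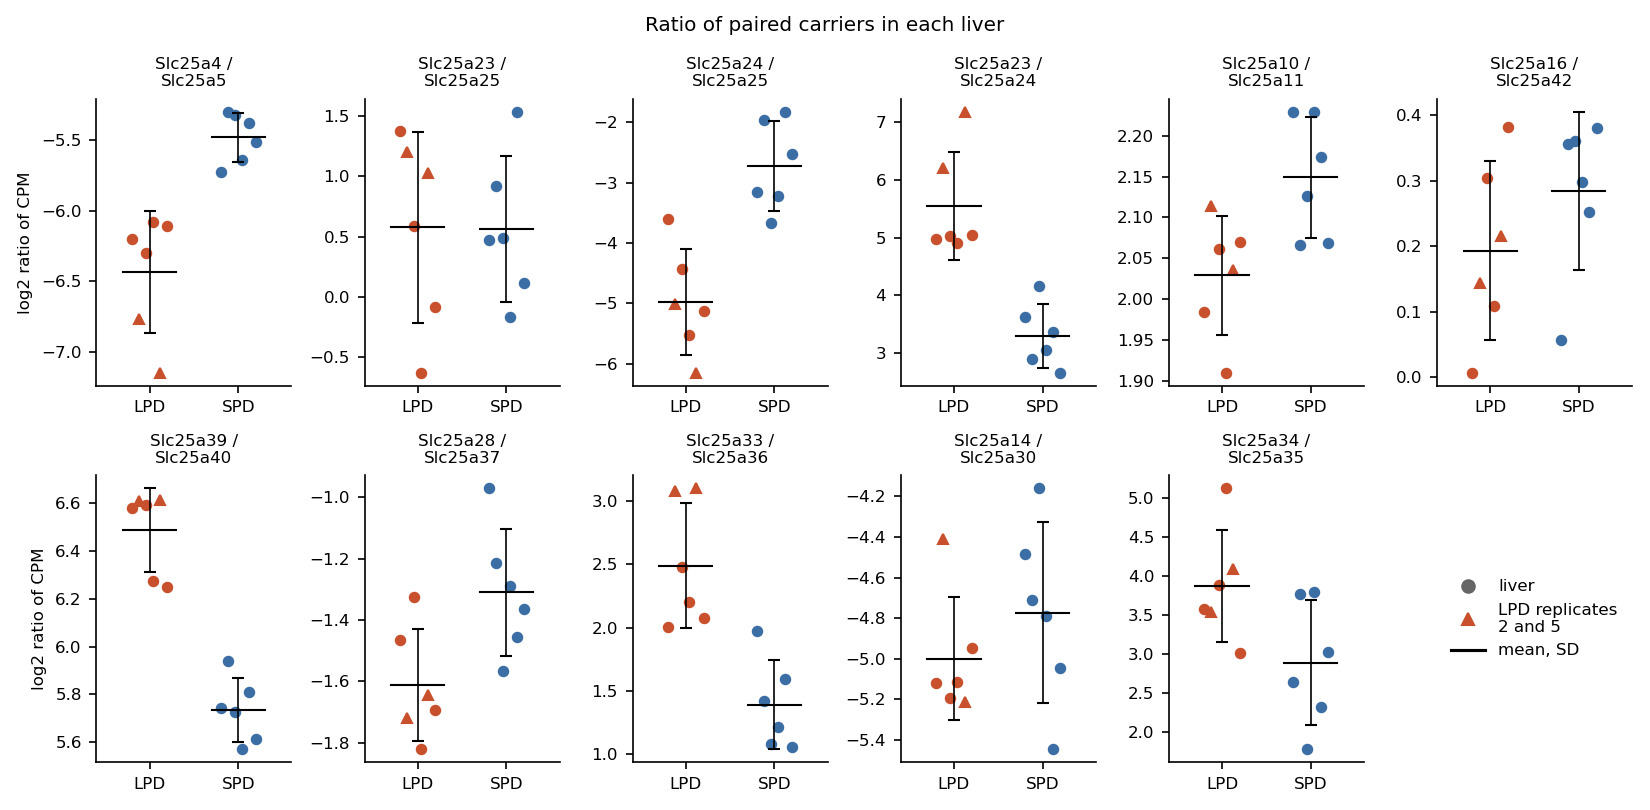
Log2 ratio of CPM within each carrier pair in each liver, LPD left of SPD, with mean and SD; triangles are LPD replicates 2 and 5. The diets do not overlap for Slc25a4/Slc25a5, Slc25a23/Slc25a24, Slc25a39/Slc25a40 and Slc25a33/Slc25a36.

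The 43 genes lie on 18 chromosomes (GENCODE M21 annotation, GRCm38 coordinates, which mm10 shares), and 4 adjacent pairs are within 100000 bases of each other. Slc25a24 (chr3:109123149-109168457, plus strand) follows Slc25a54, which had no counts, at a distance of 6461 bases. Slc25a29 (chr12:108825873-108835883, minus strand) and Slc25a47 (chr12:108836046-108856815, plus strand) point away from each other with 162 bases between them. The first rose in LPD livers and the second was at -0.01 ± 0.12; the difference between them was not tested. The other neighbours are Slc25a41 with Slc25a23, 2056 bases apart on chromosome 17, and Slc25a43 with Slc25a5, 18448 bases apart on chromosome X. Slc25a33 is at chr4:149744036-149774277, minus strand, and Slc25a4 at chr8:46206797-46211284, minus strand.

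Other parts of the inner membrane transport system were read from gene lists. The counts of each list stand beside 20.7% of all tested genes higher in LPD livers and 19.2% lower. Of 13 genes that import carriers into the membrane, 4 rose and none fell: the small chaperones of the intermembrane space Timm10 (0.64 ± 0.062, adjusted p = 2.12e-06), Timm8a1 (0.49 ± 0.079, adjusted p = 0.000204) and Timm9 (0.44 ± 0.096, adjusted p = 0.00210), and the outer membrane pore Tomm40 (0.25 ± 0.065, adjusted p = 0.00705). Timm10 had 21.03 ± 1.69 CPM in LPD livers and 13.5 ± 0.490 CPM in SPD livers. The other small Timm genes of the list were not called: Timm8b at -0.16 ± 0.076, Timm10b at 0.05 ± 0.086 and Timm13 at 0.05 ± 0.063. Timm22, the channel that inserts carriers, was at 0.07 ± 0.068. The median of the list was 0.07.

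Among 14 tested transporters of the inner membrane outside the family, 3 rose and 1 fell. For this and the lists below, the share of all tested genes called either way was 39.9%. Both subunits of the pyruvate carrier were higher: Mpc1 had 315 ± 30.01 CPM in LPD livers and 246 ± 9.63 CPM in SPD livers (0.36 ± 0.064, adjusted p = 0.000455), and Mpc2 156 ± 18.4 CPM in LPD livers and 131 ± 11.2 CPM in SPD livers (0.25 ± 0.079, adjusted p = 0.0200). Sfxn2 rose by 0.65 ± 0.087 (adjusted p = 3.63e-05), and Micu2, which gates the calcium uniporter, was at -0.71 ± 0.077 (adjusted p = 5.93e-06). Of 3 other proteins with the carrier fold, Ucp2 was at -0.54 ± 0.085 (adjusted p = 0.000175) and Mtch2 at -0.23 ± 0.062 (adjusted p = 0.00911), both lower in LPD livers, and Mtch1 was not called. Of 6 enzymes of the malate-aspartate and glycerophosphate shuttles, Gpd1 rose (0.41 ± 0.094, adjusted p = 0.00304) and Got1 fell (-0.78 ± 0.23, adjusted p = 0.0127). Of 24 nuclear genes of oxidative phosphorylation, none rose and 4 fell, among them Ndufb8, Sdha and Uqcrfs1, and the median was -0.05.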

How the data were processed

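Whole-liver RNA of 6 LPD and 6 SPD mice was sequenced; per the labels' protocols, a TruSeq kit from Illumina was used. Per the submitters' processing notes, tools included TopHat and DESeq2 and the build was mm10. The sources used here do not give their versions and roles, the counter, or how it treated strand and shared reads. The deposited table holds the authors' expected counts per gene, not scaled between libraries; per library, 17.1% to 18.9% of values above 0 were fractional (tolerance 1e-06), including values of 9 Slc25 members.

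Counts were rounded and tested in R 4.3.3 with edgeR 4.0.16: filterByExpr (minimum count 10, minimum total 15), TMM scaling, the quasi-likelihood F test of LPD over SPD, and Benjamini-Hochberg adjustment over all 13768 tested genes, called under 0.05. Standard errors are the size of the log2 fold change over the root of its F statistic. Levels in CPM use TMM-scaled totals. Per-length levels in TPM use the deposited gene lengths. Pair ratios use CPM with a prior count of 0.5 and exact permutation tests. The labels speak of mice per group, so libraries were taken as separate animals. The lowest chi-square per gene between libraries of 1 diet was 7.94, above sampling noise, so none was merged.

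Coordinates come from GENCODE M21 by gene ID, and promoters from RefSeq by symbol. The script was tested on simulated counts. Members, substrate groups, pairs and lists were chosen with earlier results of these data known. Members are accounted for singly, in ranges or in counts, except that the values of 1 tested member are not reported here, and genes outside the family are named only from those lists and exon overlaps. Alternatives were DESeq2 size factors, upper quartile scaling, no filter, a filter of 1 CPM in 6 libraries, DESeq2's Wald test (version 1.42.0), limma-voom (3.58.1) with sample weights, a replicate block, leaving out every library in turn, LPD replicate 1 counted as SPD, the SP1 and LP4 libraries alone, a prior count of 2 for pairs and, added after seeing the data, LPD replicates 2 and 5 left out together.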

Additional observations from a re-analysis of the deposited data

Results flagged for a closer look

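Within each diet, the highest or lowest liver was compared with the nearest of the others for 37 carriers, and a liver was singled out where that gap, as a share of the whole range, was above Dixon's critical value. Of 74 such groups, 4 were singled out, and chance gives about 1 in 20. Slc25a38 had 16.6 CPM in LPD replicate 2, against 11.1 to 12.9 CPM in the other LPD livers. Slc25a21 had 14.7 CPM in LPD replicate 5, against 10.9 to 12.0 CPM in the others, and Slc25a48 had 13.5 CPM in the same liver, against 10.1 to 11.1 CPM. Slc25a14 had 1.26 CPM in SPD replicate 5, against 1.99 to 2.42 CPM in the other SPD livers. LPD replicates 2 and 5 also stood apart over all genes. Without both, Slc25a38 still rose, at a log2 fold change of 0.37 (adjusted p = 0.00629).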

How the results depend on the processing

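Slc25a4, Slc25a10, Slc25a24, Slc25a32, Slc25a33, Slc25a38 and Slc25a39 kept their calls in all 22 alternatives, with log2 fold changes of -2.18 to -1.77 for Slc25a24, -0.89 to -0.65 for Slc25a4 and 0.80 to 0.93 for Slc25a33. Calls were lost for Slc25a11 and Slc25a42 in 11 alternatives each, Slc25a34 in 7, Slc25a17 in 2 (LPD replicate 1 counted as SPD; LP4 and SP1 libraries alone), and Slc25a29, Slc25a37 and Slc25a40 in 1 each; the cause was not tested. Higher members numbered 8, and 5 with the 4 LP4 and 4 SP1 libraries alone, all shared; lower members numbered 6, and 6 there too, of which 4 were shared and Slc25a22 and Slc25a46 were gained. Lower members numbered 3 with LPD replicate 1 counted as SPD. Leaving out each library gave 6 to 8 higher, 5 to 7 lower and 5 to 7 pairs; leaving out LPD replicates 2 and 5 together gave 6 higher, 7 lower and 6 pairs. With the replicate block, 8 members were higher and 6 lower, while 0 pairs passed an exact sign-flip test, 5 of them under an unadjusted p of 0.05 (smallest possible p 0.03125). With SP1 and LP4 libraries alone, the exact permutation test passed 0 pairs, with 4 under an unadjusted p of 0.05 (smallest possible p 0.0286). In both tests the smallest possible p is too high for 1 pair alone to pass after adjustment over 11 pairs. These counts of 0 therefore do not show that the ratios depend on these settings. Same-numbered livers did not deviate together (correlations -0.034 to 0.085; replicates 5 and 6 alone matched best with their own number), so the numbers were not taken to pair the mice. Slc25a27 and Slc25a35 failed the filter of 1 CPM in 6 libraries and have no value there.

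Log2 fold changes that changed sign belong to members that were not called. With upper quartile scaling Slc25a3 was at -0.0043 and with limma-voom at -0.016; with the replicate block Slc25a47 was at 0.0046. With LPD replicate 1 counted as SPD, Slc25a14 was at 0.040, Slc25a28 at 0.013 and Slc25a23 over Slc25a25 at -0.26. With LP4 and SP1 libraries alone, Slc25a3 was at -0.0066, Slc25a25 at -0.042, Slc25a26 at 0.076, Slc25a47 at 0.0037 and Slc25a48 at -0.013. Without LPD replicates 2 and 5 together, Slc25a3 was at -0.042, Slc25a14 at 0.046, Slc25a23 at -0.031, Slc25a26 at 0.019, Slc25a36 at 0.0084, Slc25a47 at 0.068 and Slc25a23 over Slc25a25 at -0.25.

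Leaving out 1 library at a time, log2 fold changes ran from -0.013 to 0.039 for Slc25a3, -0.14 to 0.063 for Slc25a14, -0.14 to 0.26 for Slc25a25, -0.077 to 0.013 for Slc25a26, -0.058 to 0.029 for Slc25a28 and -0.081 to 0.045 for Slc25a47, and the difference of Slc25a23 over Slc25a25 from -0.14 to 0.26.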
